A study of Homo sapiens with 16 samples.

Results

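The genes of sterol and fatty acid synthesis were followed in mesenchymal stem cells (MSCs) made senescent with mitomycin C (MmC) and given the cytokine growth differentiation factor 11 (GDF11). The group holds 32 genes chosen by their role: enzymes of the mevalonate arm, of squalene and lanosterol formation and of the steps from lanosterol to cholesterol, the SREBP control genes, carriers of cholesterol inside the cell, targets of the liver X receptors (LXR), and enzymes of fatty acid synthesis. All 32 were found among the 60649 gene identifiers of the deposited count table, and 31 were among the 19103 genes with enough counts to be tested. ABCG1, a cholesterol exporter, was left out by that filter with 113 counts in all 16 libraries. The cells were ASC52telo, a line of adipose MSCs immortalized with telomerase reverse transcriptase and labelled wild type, so every group came from 1 line. The 4 groups were young MSCs (MmC-/GDF11-), young MSCs given GDF11 (MmC-/GDF11+), senescent MSCs (MmC+/GDF11-) and senescent MSCs given GDF11 (MmC+/GDF11+), with 4 biological replicates each. MmC, an agent that alkylates DNA, was used at 1.5 µg/mL for 18 h, GDF11 was then present at 10 ng/mL for 10 days, and poly(A) RNA was taken at the end of that time from all groups.

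Cholesterol is built from acetyl-CoA. The mevalonate arm makes isoprenoid units, which are joined to squalene, closed to lanosterol and trimmed to cholesterol. When sterol is scarce in the endoplasmic reticulum, SCAP carries the SREBP transcription factors to the Golgi, where they are cut and released to switch on the genes of sterol and fatty acid synthesis, and the INSIG proteins hold SCAP back when sterol is plentiful. Excess sterol, as oxysterol, instead activates LXR, which raises cholesterol export through ABCA1 and ABCG1 and also transcription of SREBF1.

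The libraries held between 71275337 and 144204979 counts each. The MSC surface markers NT5E, THY1, ENG and CD44 were high in every library, with a summed level between 2983 and 3711 CPM, the read count scaled to the size of the library. Of the adipocyte markers, ADIPOQ was at 0 in 9 of 16 libraries and never above 0.0547 CPM, and the 5 markers together (ADIPOQ, PLIN1, CIDEC, LEP and FABP4) summed to between 1.31 and 2.54 CPM. The 3 markers of blood cells and macrophages (PTPRC, CD14 and CD68) summed to between 1.68 and 2.79 CPM without MmC and between 2.70 and 5.53 CPM with it. The 3 endothelial markers (PECAM1, CDH5 and VWF) summed to between 7.82 and 11.2 CPM without MmC and between 8.34 and 21.7 CPM with it. Single markers did not follow these sums. CDH5 was at 1.85 to 2.98 CPM without MmC and at 0.725 to 0.972 CPM with it, while PECAM1 was at 4.89 to 7.56 and 5.57 to 19.7 CPM. FABP4 was at 1.05 to 2.48 CPM without MmC and 0.324 to 1.116 CPM with it, and LEP at no more than 0.0260 CPM without MmC and 0.0670 to 1.30 CPM with it. The part of these cells or genes in the results below was not tested. Replicate 1 stood apart from replicates 2 to 4 in many genes, and its effect on the sterol and fatty acid genes is given after the treatments. All 16 libraries carry the same sequencing run label, and no label says what sets replicate 1 apart.

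Levels between genes were compared as RPKM, the CPM divided by exonic length in kilobases. The order depended on the group. In young MSCs SCD, the desaturase that makes oleate, was the highest at 151.5 ± 46.5 RPKM (SD, n = 4), followed by SREBF1 at 66.0 ± 15.1, FASN at 46.5 ± 14.2 and NPC2 at 43.5 ± 3.92 RPKM. In senescent MSCs NPC2 was the highest at 52.8 ± 4.68 RPKM, above SCD at 34.6 ± 9.52 and SREBF1 at 30.8 ± 9.21 RPKM. The groups given GDF11 had the same highest gene, with SCD at 151.6 ± 57.1 RPKM without MmC and NPC2 at 54.3 ± 5.14 RPKM after it. The order of FASN and NPC2 in young MSCs, and of SCD and SREBF1 in senescent MSCs, lay within the spread of the replicates. At the low end, as a mean over the 16 libraries, HSD17B7 stood at 0.987 RPKM, TM7SF2 at 0.474 RPKM, ACACA at 0.197 RPKM and ABCG1 at 0.0123 RPKM. The low level of ACACA, which makes malonyl-CoA for fatty acid synthesis, goes with a counting limit. Of its exonic words of 31 bases, 99.4% also stand on alternate contigs of the genome build, and how reads with several matches were counted is not given in the sources used here. The same share was 86.3% for LSS. CYP51A1 shares 68.2% of its exonic length on the same strand with another annotated gene that was listed at 0 in every library, and 23.8% of its words with transcripts of other genes, mostly its pseudogene CYP51A1P2. HSD17B7 shares 22% of its words with such transcripts, mostly HSD17B7P2. The levels and changes of these 4 genes are therefore uncertain.

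**Figure D1:**
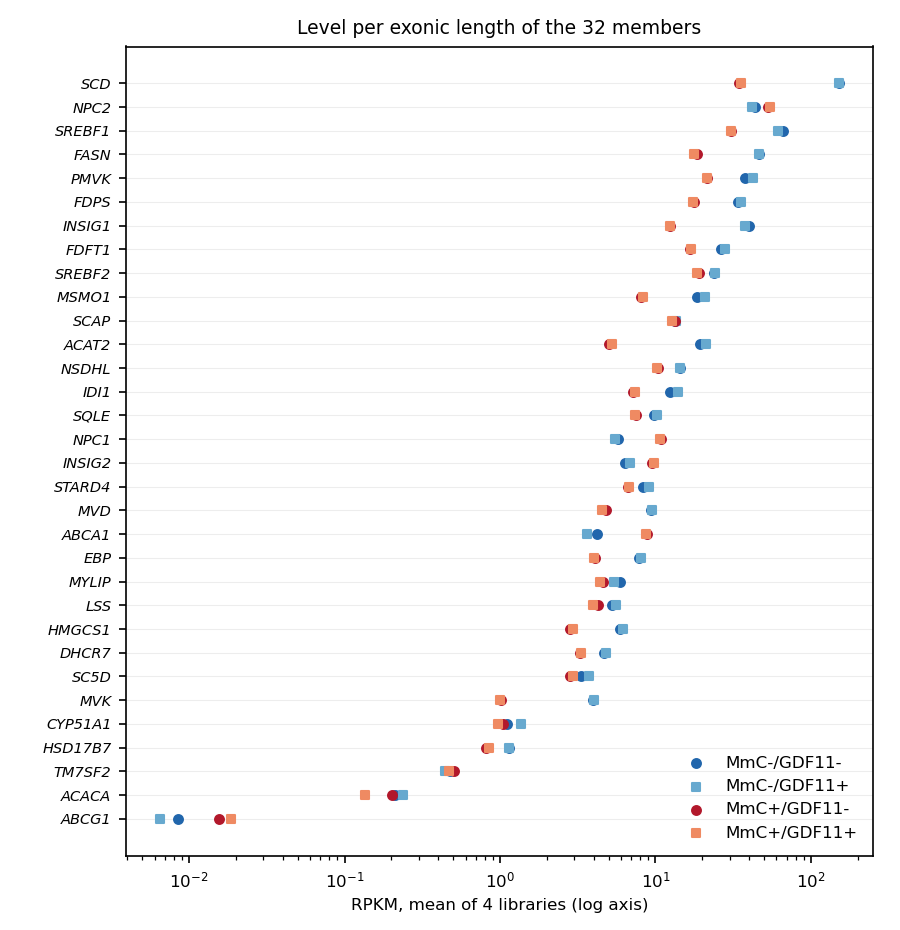
Level per exonic length of the 32 genes. The x axis is RPKM on a log scale, each point is the mean of 4 libraries of a group, and genes are ordered by their mean over 16 libraries, from ABCG1 at 0.0123 RPKM to SCD at 93.4 RPKM. For most genes the MmC+ points (red and orange) lie left of the MmC- points (blue), and for NPC1, NPC2, INSIG2 and ABCA1 they lie to the right. They also lie to the right for ABCG1, which had very few counts.

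The first question was how senescence induced by MmC changed these genes. Without GDF11, 19 of the 31 genes fell, 4 rose and 8 did not pass the test (edgeR quasi-likelihood, Benjamini-Hochberg adjusted p under 0.05). MmC moved much of the transcriptome, and among all 19103 genes 22.4% fell and 22.9% rose, 45.3% in all. The median log2 fold change of the 31 genes was -0.50, against -0.01 for all genes. With GDF11 present, 24 genes fell, 4 rose and 3 did not pass, against 23.3% of all genes lower and 23.4% higher, 46.7% in all, and the median was -0.54. In both comparisons 23 genes passed and had the same direction, 19 lower and 4 higher. The comparisons use different libraries of each treatment and no common control, but both come from the same fit. Same-numbered libraries of the senescent groups with and without GDF11 deviated together (lowest correlation 0.448). The comparisons are therefore not independent. In bulk RNA, a change in the share of cells that express a gene and a change in its RNA per cell cannot be told apart. Without replicate 1 of every group, 26 of the 31 genes passed without GDF11 and 28 with it, and these included all 23 and all 28 genes above. The additions without GDF11 were LSS, SC5D and STARD4. ABCG1 is not counted there, since it then met the filter only through its MmC+ libraries. Without GDF11, 8655 of all genes passed with every library and 10004 without replicate 1, and with GDF11 8926 and 10164. Same-numbered libraries deviated together without GDF11, and with the replicate number as a block 25 genes passed there, SC5D and STARD4 among them. The block also raised the number passing among all genes there, to 11066.

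**Figure D2:**
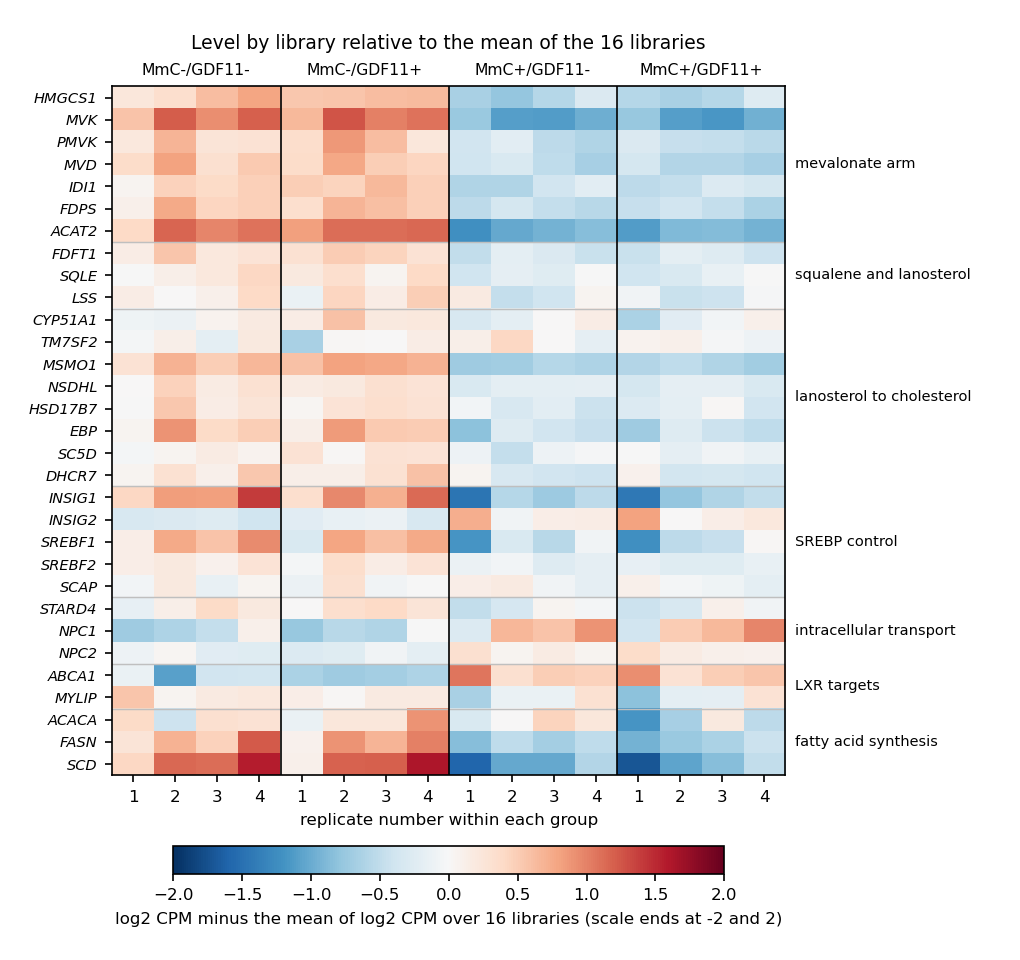
Level of the 31 tested genes in each of the 16 libraries. Rows are genes grouped by role, columns are the replicates of each group, and colour is log2 CPM minus the gene's mean over the 16 libraries, which runs from -1.71 to 1.61. The mevalonate arm, INSIG1, FASN and SCD are red in the MmC- columns and blue in the MmC+ columns, while INSIG2, NPC1 and ABCA1 mostly run the other way, and the first column of each group is the palest or bluest for SCD, SREBF1 and INSIG1.

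**Figure D3:**
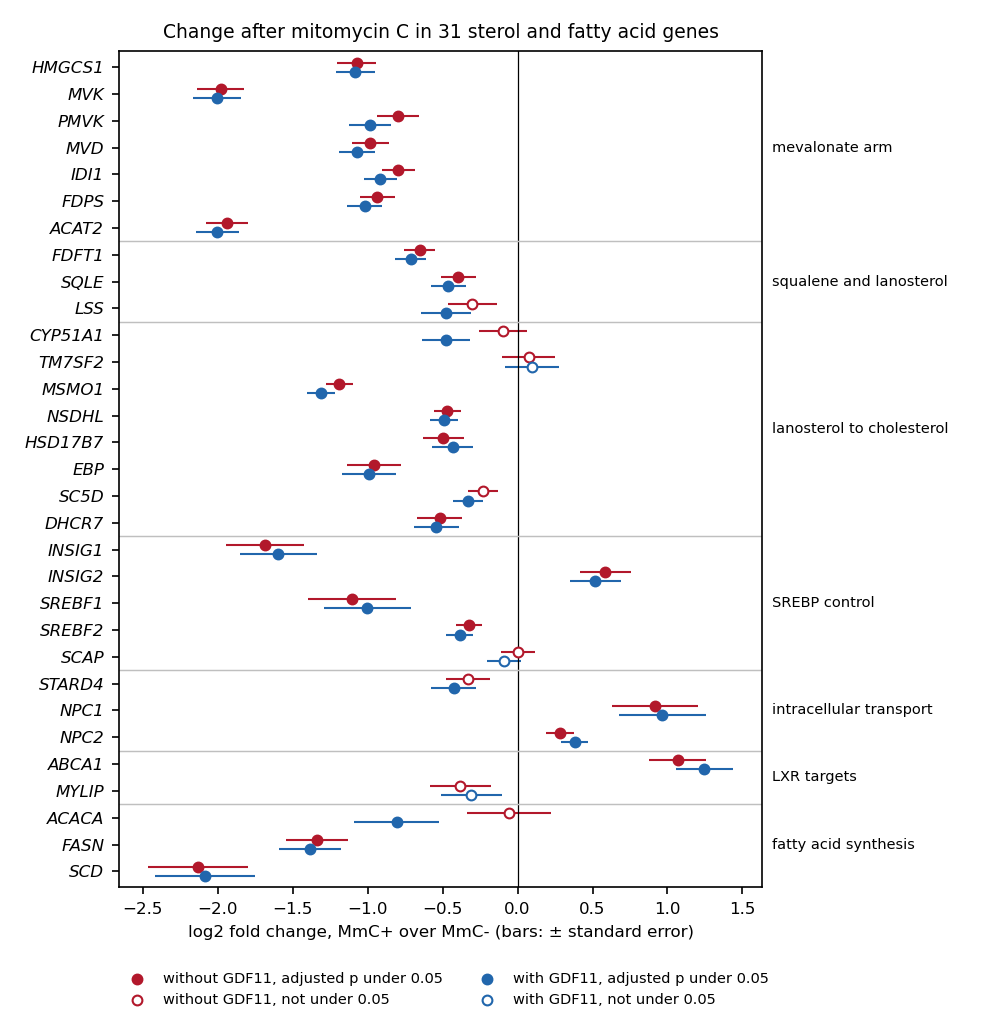
Change after MmC for the 31 tested genes. The x axis is the log2 fold change of MmC+ over MmC-, points are estimates without GDF11 (red) and with it (blue), bars are ± standard error, and filled points passed at an adjusted p under 0.05. All 7 genes of the mevalonate arm lie left of zero in both comparisons, with medians of -0.98 and -1.07.

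All 7 genes of the mevalonate arm fell after MmC, in both comparisons and with no overlap between the groups. Among all genes, 18.2% were lower without overlap when GDF11 was absent and 21.2% when it was present. MVK, mevalonate kinase (ENSG00000110921.14, chr12:109573255-109598125, plus strand, hg38), stood, in the order of replicates 1 to 4, at 26.7, 41.6, 34.0 and 41.1 CPM in MmC-/GDF11- and at 10.7, 8.32, 8.27 and 9.08 CPM in MmC+/GDF11-. Every senescent library lay below every young one, and the difference was -1.98 ± 0.16 on the log2 scale (SE, adjusted p = 2.0e-07), 3.95-fold lower. With GDF11 the values were 28.1, 42.9, 36.04 and 38.02 CPM against 10.6, 8.33, 8.01 and 9.23 CPM, a log2 fold change of -2.004 ± 0.16 (adjusted p = 1.9e-07). ACAT2, the cytosolic thiolase that opens the pathway, changed as much, by -1.94 ± 0.14 without GDF11 (adjusted p = 8.8e-08) and by -2.003 ± 0.14 with it (adjusted p = 6.3e-08). Its exons overlap TCP1 on the opposite strand over 17.2% of their length, TCP1 had between 14708 and 34552 counts per library, and the strand setting of the counting is not given in the sources used here.

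HMGCS1, HMG-CoA synthase (ENSG00000112972.15, chr5:43287470-43313512, minus strand), stood at 32.2, 34.7, 42.1 and 47.6 CPM in MmC-/GDF11- and at 17.4, 16.1, 18.5 and 22.4 CPM in MmC+/GDF11-. With GDF11 it stood at 39.9, 40.3, 41.9 and 42.4 CPM without MmC and at 18.5, 17.6, 18.5 and 23.1 CPM after MmC. The groups did not overlap, and HMGCS1 fell by 1.07 ± 0.13 (SE, adjusted p = 9.9e-06) and by 1.08 ± 0.13 (adjusted p = 9.1e-06) on the log2 scale. The other 4 enzymes of the arm, the kinase PMVK, the decarboxylase MVD, the isomerase IDI1 and farnesyl diphosphate synthase FDPS, had log2 fold changes between -0.98 and -0.80 without GDF11 and between -1.07 and -0.92 with it.

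The steps from farnesyl diphosphate to lanosterol changed less than the mevalonate arm. FDFT1, squalene synthase, fell from 119, 159, 125 and 130 CPM to 76.4, 94.3, 88.7 and 79.3 CPM without GDF11 and from 133, 154, 147 and 131 CPM to 79.5, 94.1, 90.2 and 81.0 CPM with it. The log2 fold changes were -0.65 ± 0.10 (SE, adjusted p = 0.000115) and -0.71 ± 0.10 (adjusted p = 5.3e-05), and in neither comparison did the groups overlap. SQLE, squalene epoxidase and a slow step of the pathway (ENSG00000104549.12), stood at 36.7, 40.2, 42.8 and 49.6 CPM in MmC-/GDF11- and at 28.1, 32.6, 31.2 and 36.7 CPM in MmC+/GDF11-. Here the highest senescent library and the lowest young library met, and the fall of 0.40 ± 0.12 (adjusted p = 0.011) had an adjusted p of 0.0502 without replicate 4 of MmC-/GDF11-. With GDF11, SQLE stood at 42.6, 46.6, 38.6 and 48.6 CPM without MmC and at 28.0, 29.9, 33.2 and 36.8 CPM after it. These groups did not overlap, and the fall was 0.46 ± 0.12 (adjusted p = 0.00408). LSS, lanosterol synthase, had log2 fold changes of -0.30 ± 0.17 (adjusted p = 0.151) and -0.48 ± 0.17 (adjusted p = 0.0266). The latter had an adjusted p between 0.0834 and 0.0920 without replicate 2 or 4 of MmC-/GDF11+ or replicate 2 or 3 of MmC+/GDF11+.

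Of the 8 genes from lanosterol to cholesterol, 5 fell without GDF11 and 7 fell with it, against 22.4% and 23.3% of all genes. MSMO1, the sterol methyl oxidase (ENSG00000052802.13, chr4:165327667-165343164, plus strand), moved most. It stood at 44.1, 58.4, 50.6 and 57.3 CPM in MmC-/GDF11- and at 22.01, 22.3, 24.4 and 23.6 CPM in MmC+/GDF11-, and at 54.2, 62.8, 61.9 and 58.2 CPM against 23.9, 25.3, 23.9 and 22.3 CPM with GDF11. The lowest young library was well above the highest senescent one, with log2 fold changes of -1.19 ± 0.09 (SE, adjusted p = 1.4e-07) and -1.31 ± 0.09 (adjusted p = 5.3e-08). EBP, the sterol isomerase, fell by 0.96 and 0.99 without and with GDF11. DHCR7, the last reductase of a branch to cholesterol, fell by 0.52 and 0.54, the dehydrogenase NSDHL by 0.47 and 0.49, and the ketoreductase HSD17B7 by 0.50 and 0.43. With GDF11, HSD17B7 had an adjusted p of 0.0518 without replicate 3 of MmC-/GDF11+ and of 0.0622 without replicate 4 of MmC+/GDF11+. The desaturase SC5D had log2 fold changes of -0.23 (adjusted p = 0.0668) and -0.33 (adjusted p = 0.0122). CYP51A1, the lanosterol demethylase, had -0.09 (adjusted p = 0.658) and -0.48 (adjusted p = 0.0226), and its difference between the comparisons did not pass (-0.38 ± 0.23, adjusted p = 0.9999, unadjusted p = 0.1102). With GDF11 its adjusted p was 0.0672 without replicate 1 and 0.0587 without replicate 2 of MmC+/GDF11+, and 0.0957 without replicate 2 of MmC-/GDF11+. TM7SF2, a sterol reductase, had log2 fold changes of 0.08 and 0.10, neither of which passed. EBP shares 36.4% of its exonic length on the same strand with another annotated gene that had at most 4 counts in a library. Counting all 3 groups of sterol enzymes, 14 of 18 fell without GDF11 and 17 of 18 with it, and none rose. The shares of all genes that fell were 22.4% and 23.3%. HSD17B7 is in both totals and LSS and CYP51A1 are in the total with GDF11, although their changes are uncertain.

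**Figure D4:**
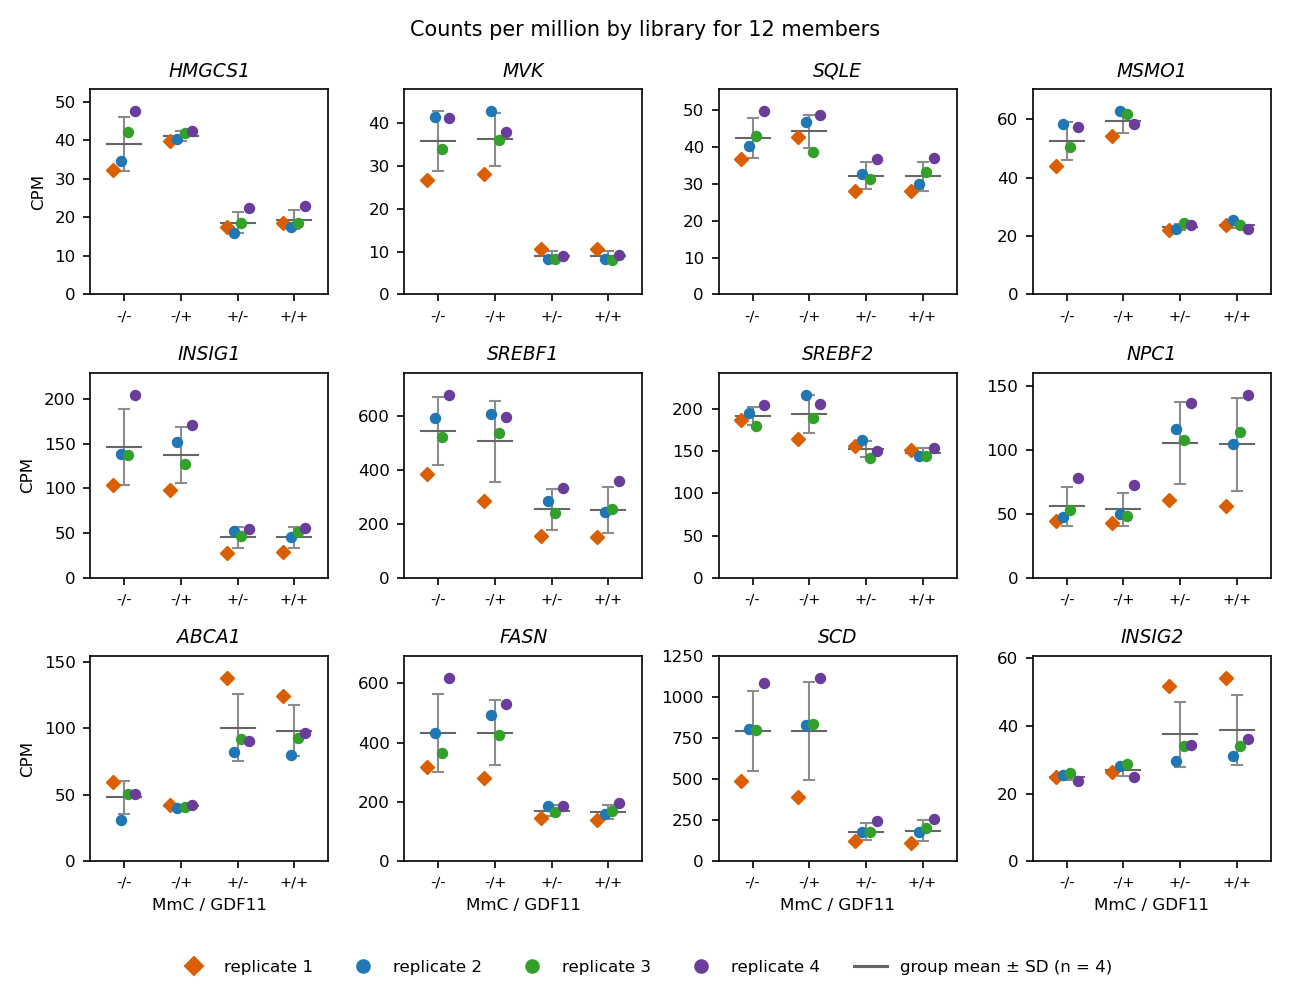
CPM in each library for 12 genes. The x axis gives the group as MmC/GDF11, diamonds are replicate 1, circles are replicates 2 to 4, and grey lines are group means ± SD (n = 4). MVK drops from at least 26.7 CPM to at most 10.7 CPM, ABCA1 rises from at most 59.9 CPM to at least 79.8 CPM, and the diamond is the lowest point of all 4 groups for INSIG1, SREBF1, NPC1, FASN and SCD.

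Among the SREBP control genes INSIG1, SREBF1 and SREBF2 fell, INSIG2 rose and SCAP did not pass. INSIG1, itself a target of SREBP (ENSG00000186480.13, chr7:155297776-155310235, plus strand), stood at 104, 139, 138 and 205 CPM in MmC-/GDF11- and at 28.3, 52.4, 47.1 and 54.2 CPM in MmC+/GDF11-. With GDF11 the values were 98.2, 152, 128 and 171 CPM against 29.1, 45.6, 51.3 and 55.6 CPM. No senescent library reached the lowest young library, and INSIG1 fell by 1.69 ± 0.26 (SE, adjusted p = 0.000104) and by 1.60 ± 0.26 (adjusted p = 0.000157). INSIG2, which is not driven by SREBP in the same way, stood at 24.8, 25.4, 26.04 and 23.6 CPM in MmC-/GDF11- and at 51.6, 29.7, 34.1 and 34.4 CPM in MmC+/GDF11-. With GDF11 it stood at 26.5, 28.2, 28.8 and 24.9 CPM without MmC and at 54.1, 31.1, 33.9 and 36.1 CPM after it. The groups did not overlap, but replicate 1 was far the highest of the senescent libraries. INSIG2 rose by 0.59 ± 0.17 (adjusted p = 0.00983) and 0.52 ± 0.17 (adjusted p = 0.0190), and without replicate 1 of every group by 0.39 and 0.31 (adjusted p = 0.00342 and 0.0139). With GDF11, leaving out replicate 1 of MmC+/GDF11+ alone gave an adjusted p of 0.0675.

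SREBF1, the SREBP gene more tied to fatty acid synthesis and also a target of LXR (ENSG00000072310.18, chr17:17810399-17837002, minus strand), stood at 383, 592, 521 and 678 CPM in MmC-/GDF11- and at 155, 285, 240 and 334 CPM in MmC+/GDF11-. In the groups given GDF11 it stood at 285, 604, 535 and 595 CPM without MmC and at 150, 245, 256 and 357 CPM after it. Without GDF11 the groups did not overlap, and with GDF11 replicate 1 of the young group lay below replicate 4 of the senescent one. SREBF1 fell by 1.10 ± 0.29 (SE, adjusted p = 0.00641) and 1.00 ± 0.29 (adjusted p = 0.0109). SREBF2, the SREBP gene more tied to sterol synthesis (ENSG00000198911.12, chr22:41833105-41907306, plus strand), stood at 186, 195, 179 and 204 CPM in MmC-/GDF11- and at 156, 163, 141 and 150 CPM in MmC+/GDF11-. With GDF11 it stood at 164, 217, 189 and 205 CPM without MmC and at 151, 144, 144 and 154 CPM after it. The groups did not overlap, and the falls of 0.32 ± 0.09 (adjusted p = 0.00703) and 0.39 ± 0.09 (adjusted p = 0.00209) were small beside those of INSIG1 and SREBF1. SCAP, the escort of the SREBPs, had log2 fold changes of 0.00 ± 0.11 and -0.09 ± 0.11.

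The genes of lysosomal cholesterol egress moved against the enzymes. NPC1, which passes cholesterol out of the lysosome (ENSG00000141458.13, chr18:23506184-23586506, minus strand), stood at 44.6, 47.6, 52.6 and 78.2 CPM in MmC-/GDF11- and at 60.5, 116, 108 and 136 CPM in MmC+/GDF11-. With GDF11 it stood at 43.2, 49.7, 48.0 and 72.6 CPM without MmC and at 55.9, 104, 114 and 143 CPM after it. Replicate 1 of each senescent group fell below replicate 4 of the young group, so the groups overlapped, and the rise was 0.92 ± 0.29 (SE, adjusted p = 0.0170) and 0.97 ± 0.29 (adjusted p = 0.0125). Without replicate 1 of every group it was 1.013 and 1.09 (adjusted p = 0.000779 and 0.000457), while leaving out replicate 4 of MmC+/GDF11- alone gave an adjusted p of 0.0559 without GDF11. Its soluble partner NPC2 rose by 0.28 ± 0.09 (adjusted p = 0.0219) and 0.38 ± 0.09 (adjusted p = 0.00346), with no overlap. Its adjusted p without GDF11 was 0.0597 without replicate 1 of MmC+/GDF11-, and 0.0588 and 0.0551 without replicates 3 and 4 of MmC-/GDF11-. STARD4, a carrier of sterol in the cytosol and a target of SREBP, had log2 fold changes of -0.33 ± 0.15 (adjusted p = 0.078) and -0.43 ± 0.15 (adjusted p = 0.0259). The latter had an adjusted p of 0.0770 and 0.0830 without replicates 1 and 2 of MmC+/GDF11+, and of 0.0663 and 0.0794 without replicates 2 and 3 of MmC-/GDF11+.

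ABCA1, the exporter of cholesterol to lipid-poor lipoprotein and the best known target of LXR (ENSG00000165029.17, chr9:104781006-104928155, minus strand), rose. It stood at 59.9, 30.9, 50.4 and 50.6 CPM in MmC-/GDF11- and at 138, 81.8, 91.9 and 90.3 CPM in MmC+/GDF11-, and with GDF11 at 42.4, 40.04, 40.8 and 42.5 CPM against 124, 79.8, 92.3 and 96.4 CPM. All senescent libraries lay above all young ones, by 1.07 ± 0.19 (SE, adjusted p = 0.000325) and 1.25 ± 0.19 (adjusted p = 8.9e-05) on the log2 scale. Without replicate 1, the highest senescent library in both groups, the rises were 1.00 and 1.13. Among all genes, 19.1% were higher without overlap when GDF11 was absent and 20.2% when it was present. MYLIP, another target of LXR and a ubiquitin ligase for lipoprotein receptors, had log2 fold changes of -0.38 ± 0.20 (adjusted p = 0.136) and -0.31 ± 0.20 (adjusted p = 0.226). ABCG1 had 18 counts over the 4 libraries of MmC-/GDF11- and 34 over those of MmC+/GDF11-, too few to pass the filter. With no filter, its log2 fold changes after MmC were 0.87 ± 0.56 (adjusted p = 0.317) and 1.47 ± 0.57 (adjusted p = 0.0639).

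Of the fatty acid genes, SCD and FASN fell in both comparisons. SCD (ENSG00000099194.6, chr10:100347233-100364826, plus strand) stood at 488, 808.5, 797 and 1085 CPM in MmC-/GDF11- and at 122, 180, 180.5 and 244 CPM in MmC+/GDF11-. With GDF11 it stood at 393, 831, 839 and 1117 CPM without MmC and at 112, 176, 202 and 259 CPM after it. The highest senescent library remained below the lowest young one although the replicates spread widely, and SCD fell by 2.13 ± 0.33 (SE, adjusted p = 0.000130) and 2.08 ± 0.33 (adjusted p = 0.000151). These were the lowest log2 fold changes of the 31 genes, but their distance from those of MVK lay within the standard error, and without replicate 1 of every group MVK was lower than SCD (-2.186 against -2.155 without GDF11, and -2.192 against -2.125 with it). FASN, fatty acid synthase (ENSG00000169710.9, chr17:82078338-82098294, minus strand), stood at 318, 432, 365 and 619 CPM in MmC-/GDF11- and at 146, 186, 166 and 186 CPM in MmC+/GDF11-. With GDF11 it stood at 282, 494, 426 and 531 CPM without MmC and at 138, 158, 170 and 196 CPM after it. Again no senescent library reached a young one, and the falls were 1.34 ± 0.21 (adjusted p = 9.6e-05) and 1.39 ± 0.21 (adjusted p = 7.0e-05). ACACA, counted at only 1.07 to 4.54 CPM, had log2 fold changes of -0.06 ± 0.28 (adjusted p = 0.882) and -0.81 ± 0.28 (adjusted p = 0.0283). With GDF11 its adjusted p was 0.0788, 0.0781 and 0.0652 without replicates 1, 2 and 4 of MmC+/GDF11+, and 0.125 without replicate 4 of MmC-/GDF11+. Its groups overlapped in both comparisons, and the difference between them did not pass (-0.75 ± 0.40, adjusted p = 0.9999, unadjusted p = 0.0787).

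SREBPs bind sterol regulatory elements in promoters, usually beside a box for NF-Y. A window from 250 bases before to 50 after the start site was found in RefSeq (GRCh38.p14) for 27 of the 32 genes, as 36 windows, and was searched on both strands. The letters TCACNCNAC, a loose spelling of the sterol element, were in 3 of the 36 windows and in 2.55% of all 35116 windows, and the stricter TCACNCCAC was in 1 and in 1.13%. The NF-Y letters CCAAT were in 23 windows against 34.6% of all, the Sp1 letters GGGCGG in 33 windows against 45%, and the E-box CACGTG in 6 windows against 7.26%. The spelling searched for the LXR element, a direct repeat with 4 bases between, was in none of the 36 windows. It was in only 7 of all 35116 windows (0.0199%). With a spelling so rare, none was likely in 36 windows, and its absence cannot show that a gene lacks an LXR site. All of these searches count matches of letters and are no measure of binding. The sequences below are stretches before the start site of the 3 genes with the sterol letters (SREBF2, FDPS and HSD17B7) and of the genes with the lowest log2 fold changes in the mevalonate arm (MVK), from lanosterol to cholesterol (MSMO1), in SREBP control (INSIG1) and in fatty acid synthesis (SCD). All are read 5′ to 3′ on the plus strand of GRCh38.p14, and capitals mark TCACNCNAC and CCAAT or its complement ATTGG.
SREBF2, chr22:41832955-41833104: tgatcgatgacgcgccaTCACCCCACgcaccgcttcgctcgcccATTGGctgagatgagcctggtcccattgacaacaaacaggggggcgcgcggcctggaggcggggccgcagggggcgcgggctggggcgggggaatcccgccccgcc
FDPS, chr1:155308656-155308748: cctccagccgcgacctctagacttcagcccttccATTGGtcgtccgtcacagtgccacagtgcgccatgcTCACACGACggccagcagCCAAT
HSD17B7, chr1:162790552-162790701: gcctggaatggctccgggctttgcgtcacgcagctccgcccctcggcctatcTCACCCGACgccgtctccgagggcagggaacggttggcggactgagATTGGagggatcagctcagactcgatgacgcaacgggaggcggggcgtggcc
MVK, chr12:109573581-109573792: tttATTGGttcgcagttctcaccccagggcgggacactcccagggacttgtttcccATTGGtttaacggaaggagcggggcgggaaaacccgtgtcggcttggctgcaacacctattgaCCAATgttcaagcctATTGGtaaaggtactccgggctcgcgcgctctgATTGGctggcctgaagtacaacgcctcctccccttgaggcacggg
MSMO1, chr4:165327517-165327666: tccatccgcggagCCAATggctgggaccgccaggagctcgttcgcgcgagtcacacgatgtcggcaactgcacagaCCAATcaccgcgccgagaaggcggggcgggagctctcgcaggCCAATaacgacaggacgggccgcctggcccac
INSIG1, chr7:155297658-155297775: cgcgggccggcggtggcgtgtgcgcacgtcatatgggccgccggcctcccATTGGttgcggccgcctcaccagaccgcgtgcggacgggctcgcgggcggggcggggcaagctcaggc
SCD, chr10:100346983-100347132: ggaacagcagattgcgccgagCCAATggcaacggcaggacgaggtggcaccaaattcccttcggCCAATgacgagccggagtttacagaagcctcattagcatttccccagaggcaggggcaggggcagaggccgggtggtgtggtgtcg
Start sites here are those of RefSeq, and the MVK stretch lies inside the MVK gene span given above. In SREBF2 the sterol letters begin 133 bases before the start site and an NF-Y box 106 bases before it. In FDPS they begin at 140 with NF-Y boxes at 122 and 176, and in HSD17B7 at 98 with an NF-Y box at 52. The MVK stretch holds 5 NF-Y boxes and no sterol letters. Sterol elements with other spellings were not searched for, so the absence of these letters cannot show that a gene lacks such an element.

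A further list of 72 genes around the pathway, of which 67 were tested, did not follow the fall of the enzymes. Without GDF11, 26 rose and 10 fell after MmC (38.8% and 14.9%, against 22.9% and 22.4% of all genes), and with GDF11 27 rose and 9 fell (40.3% and 13.4%, against 23.4% and 23.3%). Their median log2 fold changes were 0.06 and 0.08. CH25H, which makes an oxysterol that holds back SREBP and can activate LXR, stood at 2.96, 1.18, 1.26 and 1.84 CPM in MmC-/GDF11- and at 16.7, 39.2, 33.9 and 28.2 CPM in MmC+/GDF11-. Every senescent library was above every young one, and CH25H rose by 4.03 ± 0.39 (SE, adjusted p = 1.6e-06) without GDF11 and by 4.10 ± 0.39 (adjusted p = 1.5e-06) with it. Of the other genes of LXR and oxysterols, CYP27A1, a sterol hydroxylase, rose by 1.17 and 1.23, NR1H2, which encodes an LXR, rose by 0.32 in both, and LPCAT3, a phospholipid acyltransferase, fell by 0.73 and 0.58.

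Among the 11 genes of SREBP processing and degradation, 5 rose without GDF11 (45.5%, against 22.9% of all genes) and 4 with it (36.4%, against 23.4%), and none passed as lower. PAQR3, a Golgi anchor for the SCAP complex, rose by 0.82 and 0.92, and MBTPS2, the second protease that cuts SREBP, by 0.58 and 0.61. Of 14 genes of sterol esters and lysosomal transport, 8 rose in each comparison (57.1%, against 22.9% and 23.4% of all genes) and none passed as lower. STARD6 lay lower without overlap when GDF11 was absent, with a log2 fold change of -0.92 ± 0.42 (SE, adjusted p = 0.0865). The largest rises there were those of GRAMD1B, a sterol transfer protein (1.00 and 0.89), SCARB1, a receptor for high-density lipoprotein (0.75 and 0.81), and NCEH1, a cholesterol ester hydrolase (0.67 and 0.63).

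Of the 20 further fatty acid genes tested, 5 rose and 6 fell without GDF11 (25% and 30%, against 22.9% and 22.4% of all genes), and 7 rose and 5 fell with it (35% and 25%, against 23.4% and 23.3%). FADS2, the first desaturase of polyunsaturated fatty acids, fell by 1.50 ± 0.19 (SE, adjusted p = 1.4e-05) and 1.47 ± 0.19 (adjusted p = 1.7e-05). The elongases went both ways, since ELOVL7 rose by 2.98 and 2.58 and ELOVL3 by 1.76 and 1.97, while ELOVL6 fell by 0.92 and 0.98. ELOVL7 and ELOVL3 stayed at or below 2.07 and 7.46 CPM. Of 7 glycerolipid genes 3 rose and 1 fell in each comparison (42.9% and 14.3%). PLIN2, a coat protein of lipid droplets, rose by 1.88 ± 0.24 and 1.85 ± 0.24 (adjusted p = 2.0e-05 and 2.2e-05), DGAT2, which makes triglyceride, by 1.82 and 1.97, and LPIN1, a phosphatidate phosphatase, fell by 0.74 and 0.67. Of 9 tested genes in other branches of the mevalonate pathway 2 rose and 2 fell in each comparison, 22.2% each way, near the share of all genes. PDSS1, which makes the side chain of coenzyme Q, fell by 1.25 and 1.18, and COQ2, which attaches it, by 0.71 and 0.66, while PDSS2, the partner of PDSS1, rose by 0.40 and 0.39.

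The second question was whether GDF11 changed these genes in young or in senescent MSCs. No gene of the 31 passed in either, against 0.00% of all genes in each, and none had an unadjusted p under 0.05 (edgeR). Among all 19103 genes 226 in young (1.18%) and 96 in senescent MSCs (0.503%) had such a p. Both shares lie below the 0.05 that no effect at all would give, so this test may miss small changes. The cause of these low shares was not tested. With limma-voom no gene passed and 200 and 94 were under 0.05 unadjusted, and with DESeq2 1 gene outside the group passed in young and none in senescent MSCs, with 197 and 62 under 0.05. The smallest p in the group was 0.0750 in young MSCs, for MSMO1 (0.17 ± 0.09 log2), and 0.0628 in senescent MSCs, for ACACA (-0.56 ± 0.28). In young MSCs all 31 genes had a 95% interval of the GDF11 effect inside ±1 on the log2 scale, and 22 had one inside ±0.5, a 1.41-fold change. In senescent MSCs these counts were 30 and 25. The intervals that reached past ±0.5 in both belonged to INSIG1, SREBF1, NPC1, MYLIP, ACACA and SCD. These intervals take no account of the replicate number, and same-numbered senescent libraries deviated together. Within those pairs the log2 difference of GDF11+ over GDF11- lay between -0.20 and 0.12 for INSIG1, -0.22 and 0.10 for SREBF1, -0.16 and 0.08 for NPC1, -0.17 and -0.01 for MYLIP, and -0.12 and 0.16 for SCD, while for ACACA it lay between -0.86 and -0.24. The difference of the MmC effect with and without GDF11 passed for no gene of the group (0.00% of all genes), and the smallest unadjusted p was 0.0787, for ACACA. Over all genes that difference had an unadjusted p under 0.05 in 172 (0.900%), and no gene passed by limma-voom or DESeq2, with 150 and 137 under 0.05 unadjusted. This share too lies below the 0.05 that no effect would give.

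The third question was how replicate 1 differed from replicates 2 to 4. Within the groups, 9 of the 31 genes were lower in replicate 1 and 2 were higher, against 15.5% of all genes lower and 15.1% higher, 30.5% in all. SCD was lower by 0.94 ± 0.13 (SE, adjusted p = 7.0e-05), SREBF1 by 0.86 ± 0.11 (adjusted p = 3.4e-05), INSIG1 by 0.72 ± 0.11 (adjusted p = 9.1e-05), NPC1 by 0.71 ± 0.16 (adjusted p = 0.00366) and FASN by 0.49 ± 0.12 (adjusted p = 0.00488). EBP was lower by 0.46, STARD4 by 0.37, ACAT2 by 0.36 and CYP51A1 by 0.30. ABCA1 was higher by 0.41 ± 0.11 (adjusted p = 0.00835) and INSIG2 by 0.34 ± 0.10 (adjusted p = 0.0187). The calls of ABCA1, INSIG2 and CYP51A1 each rested on 1 or more libraries. Without replicate 1 of MmC+/GDF11- their adjusted p was 0.0654, 0.143 and 0.143. INSIG2 had 0.148 and CYP51A1 0.251 when replicate 1 of MmC+/GDF11+ was left out, and for CYP51A1 it lay between 0.0513 and 0.0678 without any of 9 other libraries. Same-numbered libraries deviated together, so that these p-values, which treat the 16 libraries as independent, may be too small, and this comparison was chosen with earlier results of these data known.

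Replicate 1 was the lowest library in all 4 groups for 9 of the 31 genes (ACAT2, NSDHL, EBP, INSIG1, SREBF1, STARD4, NPC1, FASN and SCD), against 8.56% of all genes, and the highest in all 4 groups for none, against 9.34%. For SCD, replicate 1 stood at 488, 393, 122 and 112 CPM in the 4 groups, and the lowest of the other libraries at 797, 831, 180 and 176 CPM. For SREBF1 the corresponding levels were 383, 285, 155 and 150 CPM and 521, 535, 240 and 245 CPM. Replicate 1 was thus lower than each other library of its group in genes that fell after MmC and also in NPC1, which rose.

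**Figure D5:**
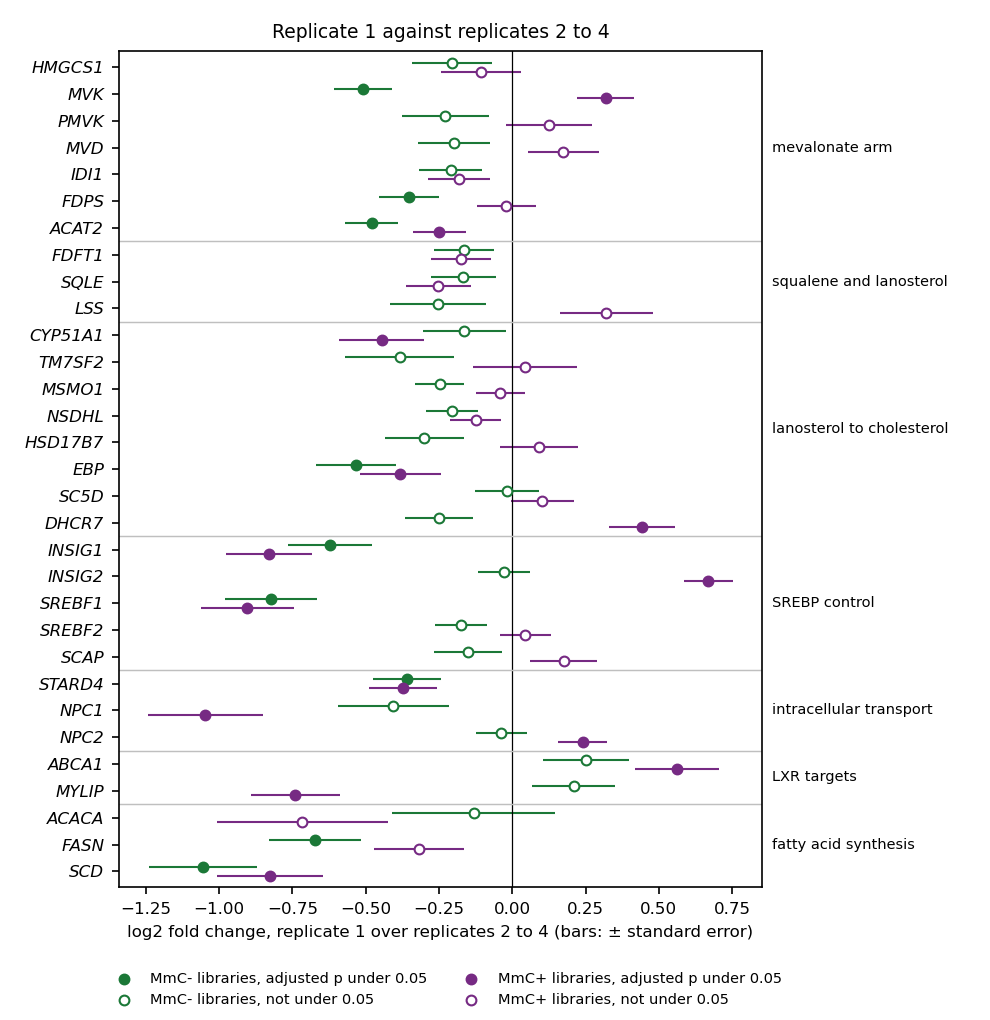
Replicate 1 against replicates 2 to 4, in MmC- libraries (green) and MmC+ libraries (purple), for the 31 tested genes. The x axis is the log2 fold change, bars are ± standard error, and filled points passed at an adjusted p under 0.05. SCD, SREBF1 and INSIG1 lie left of zero in both arms, while MVK lies at -0.51 in MmC- libraries and at 0.32 in MmC+ libraries.

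In the MmC- libraries 9 genes were lower in replicate 1 and none was higher, against 6.02% and 7.24% of all genes (13.3% in all). In the MmC+ libraries 9 were lower and 5 higher, against 16.8% and 16.9% (33.7% in all). SCD was lower by 1.05 ± 0.18 and 0.83 ± 0.18 in these arms (SE, adjusted p = 0.00122 and 0.00214), SREBF1 by 0.82 and 0.90, and INSIG1 by 0.62 and 0.83. Only 2 libraries of replicate 1 stand in each arm, and most calls there rested on both. Without replicate 1 of MmC-/GDF11- or of MmC-/GDF11+, 2 and 3 genes passed in the MmC- arm, and without replicate 1 of MmC+/GDF11- or of MmC+/GDF11+, 6 genes passed each time in the MmC+ arm. In these fits the lone library of replicate 1 in the arm was assumed to vary like the others. INSIG1 in the MmC- arm had an adjusted p of 0.190 and 0.0821 without either library, SREBF1 in that arm 0.0866 without MmC-/GDF11+ replicate 1, and SCD in the MmC+ arm 0.0667 without MmC+/GDF11+ replicate 1. The effect of replicate 1 differed between the arms for 4 genes, 3 with a higher and 1 with a lower value in the MmC+ arm, against 4.58% and 5.34% of all genes (9.92% in all). MVK was lower in replicate 1 without MmC (-0.51 ± 0.10) and higher after it (0.32 ± 0.10), a difference of 0.83 ± 0.14 (adjusted p = 0.00117). INSIG2 had -0.03 ± 0.09 without MmC and 0.67 ± 0.08 after it, a difference of 0.70 ± 0.12 (adjusted p = 0.00200). DHCR7 had -0.25 ± 0.12 and 0.44 ± 0.11, a difference of 0.69 ± 0.16 (adjusted p = 0.0120), and MYLIP had 0.21 ± 0.14 and -0.74 ± 0.15, a difference of -0.95 ± 0.20 (adjusted p = 0.00696). The difference of DHCR7 had an adjusted p between 0.0725 and 0.1101 without any 1 of the 4 libraries of replicate 1, and that of MYLIP had 0.0693 without MmC+/GDF11+ replicate 1 and 0.0888 without MmC-/GDF11- replicate 1. Changes between same-numbered libraries restate these differences in the same libraries and are no separate test of them. With GDF11 the replicate numbers were not taken as pairs. Between same-numbered libraries, the log2 change after MmC in replicate 1 was -1.32 without GDF11 and -1.40 with it for MVK, where replicates 2 to 4 lay between -2.36 and -2.04. For DHCR7 it was -0.01 and -0.03 in replicate 1 and between -0.99 and -0.49 in the others. INSIG2 went the other way, with 1.06 and 1.03 in replicate 1 and between 0.14 and 0.54 in the others. MYLIP, which did not pass for MmC, had -1.21 and -0.95 in replicate 1 and between -0.37 and 0.11 in the others.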

How the data were processed

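RNA-seq of poly(A) RNA was analysed in 16 libraries, 4 of each group. The authors deposited 1 table of raw read counts per gene, not normalized. The submitters' processing notes name HISAT2 2.2.1 and featureCounts 2.0.1, and the gene identifiers are those of GENCODE V38 on hg38. The strand setting and the treatment of reads with several matches are not given in the sources used here, which bears on the genes named as uncertain. Gene positions and exonic lengths were taken from GENCODE V44, in which 186 of 60649 identifiers had no match. No column of the table was left unused (0).

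The deposited counts were tested with edgeR 4.0.16 in R 4.3.3 (filterByExpr with a minimum count of 10 and a minimum total of 15, TMM scaling, quasi-likelihood test with robust estimation). All 16 libraries entered 1 fit with a mean per group, p-values were adjusted by Benjamini-Hochberg over the 19103 genes tested, and a gene was called at an adjusted p under 0.05. Replicate 1 was compared with replicates 2 to 4 by adding a term for it to the group means, once for all libraries and once for each MmC arm. CPM values use TMM-scaled library sizes and RPKM adds the length of all annotated exons joined. Alternatives were RLE scaling, no filter, limma-voom (limma 3.58.1), DESeq2 1.42.0, only the libraries compared, the replicate number as a block, replicate 1 left out of every group, and each library left out in turn.

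Same-numbered libraries were checked for shared deviations from the group means across genes. Every correlation was above 0.1 for MmC without GDF11 (lowest 0.113) and for GDF11 in senescent MSCs (lowest 0.448), where the pairing comes from the data and not from the labels. Values in every library were given for the called genes that changed most within their role and for a list of key genes, and up to 3 genes of each further sublist were named. The members, lists and comparisons were chosen with earlier results of these data known. On simulated counts for MmC without GDF11, 95% of 100 genes changed by 2-fold were recovered, and 63% of 100 changed by 1.414-fold, with 18776 genes run. The simulated spread left out the replicate 1 effect in each MmC arm, and the simulated libraries were independent. Genes of low level were not among those changed. Recovery in the real data may therefore be lower.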

Additional observations from a re-analysis of the deposited data

Results flagged for a closer look

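In 128 sets of 4 libraries, 1 for each gene and group, chance alone gives about 1 in 20 with a library far from the other 3. Such libraries were found in 7 sets, a count near that of chance. In MmC-/GDF11- these were PMVK in replicate 2, at 46.8 CPM where the other libraries lay between 33.6 and 35.4 CPM, and ACACA in replicate 2, at 1.82 CPM where the others lay between 2.95 and 3.17 CPM. In MmC-/GDF11+ they were ACAT2 in replicate 1 (47.4 CPM, others 57.7 to 59.0 CPM), CYP51A1 in replicate 2 (6.91 CPM, others 5.11 to 5.34 CPM) and SC5D in replicate 2 (32.4 CPM, others 38.7 to 39.05 CPM). After MmC they were NSDHL in replicate 1 of MmC+/GDF11- (19.5 CPM, others 21.1 to 21.3 CPM) and DHCR7 in replicate 1 of MmC+/GDF11+ (28.5 CPM, others 20.4 to 21.0 CPM). Replicate 1 held 3 of the 7.

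The difference between replicate 1 and the other replicates was compared between the MmC arms by edgeR with adjustment over all genes. It was not the same in both arms for 4 of the 31 genes, a number near the share of 9.92% among all genes. On the log2 scale, MmC+ minus MmC-, it was 0.83 for MVK (adjusted p = 0.00117), 0.70 for INSIG2 (adjusted p = 0.00200), 0.69 for DHCR7 (adjusted p = 0.0120) and -0.95 for MYLIP (adjusted p = 0.00696). The calls of DHCR7 and MYLIP rested on single libraries of replicate 1, as given above. What sets replicate 1 apart was not tested.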

How the results depend on the processing

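No gene called in a comparison changed direction under any alternative run. The count of genes called after MmC was 23 without GDF11 and 28 with it under RLE scaling, limma-voom and DESeq2 alike. It was 21 and 27 with no filter on low counts and 23 and 26 with only the libraries compared. Without replicate 1 it was 26 and 28, where ABCG1, which then met the filter only through its MmC+ libraries, is not counted. Over all genes, 8655 and 8926 passed with every library and 10004 and 10164 without replicate 1. Leaving out 1 library at a time gave 21 to 24 and 24 to 29 genes for these comparisons, and 0 for GDF11 in young or senescent MSCs and for the interaction of MmC and GDF11. For replicate 1 against the others the same gave 8 to 14 genes over all libraries, 2 to 9 in the MmC- arm, 6 to 16 in the MmC+ arm and 2 to 5 for the difference of the arms, each lowest without a library of replicate 1. In all, 118 of 1933 pairs of a called gene and an alternative missed the threshold, 28 of them in the comparisons of MmC. Of the latter, NPC1 and NPC2 without GDF11 and HSD17B7 with it also missed it with no filter (adjusted p = 0.0632, 0.0713 and 0.0588), and ACACA and CYP51A1 with GDF11 missed it with only the libraries compared (adjusted p = 0.0616 and 0.0556). The median level of the genes was 7.86 RPKM, and 10.4 RPKM with the length of the longest transcript.

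With the replicate number as a block, 25 genes passed for MmC without GDF11 and 28 with it, and 0 for GDF11 or for the interaction. Among all 19103 genes, 11066 and 11267 passed for MmC with the block, against 8655 and 8926 without the block. For MmC with GDF11 and for GDF11 in young MSCs the lowest correlation of same-numbered libraries was 0.0293 and 0.0982, so the numbers were not taken as pairs there. Over all 19103 genes the block raised the number with an unadjusted p under 0.05 to 551 for GDF11 in young MSCs, 145 in senescent MSCs and 296 for the interaction. The cause of that rise was not tested. With no filter these numbers were 653, 575 and 687, but out of a larger set of genes, since those with low counts were added. ABCG1, at no more than 0.163 CPM in any library, is limited by its counts. ACACA and CYP51A1 stood at a few CPM, with 3699 and 6706 counts over the 16 libraries, and are uncertain through the shared sequence given above.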
